A study of Homo sapiens with 6 samples.

Results

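The BH3-only genes encode the killer branch of the BCL2 family, small proteins that start apoptosis at the mitochondrion. Each carries a short helix, the BH3 domain, that fits into a groove of the pro-survival proteins (BCL2, BCL-XL, BCL-W, MCL1, A1). BIM (gene BCL2L11), PUMA (BBC3) and BID are known as activators, which can also engage the pore formers BAX and BAK1 directly, whereas BMF, NOXA (PMAIP1), BAD, BIK and HRK are known as sensitizers, which act by occupying the pro-survival proteins. The 8 genes were chosen by name, and all 8 were found among the 38637 genes of the deposited table.

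RNA was measured by sequencing polyA RNA of OVCAR8, a human ovarian cancer cell line whose genotype is given as wild type. Cells received the solvent DMSO or 2 nM pladienolide B, an inhibitor of the splicing factor SF3B1, over 72 h, and each group holds 3 samples. The comparison asks how the BH3-only transcripts differ between cells with and without the inhibitor. The sequenced samples cover a single cell line, dose of the inhibitor and time. The sources used here do not say whether the samples came from separate cultures. The p-values therefore measure the spread between these samples, which may be technical. A bulk value averages all harvested cells, and fewer cells with a transcript cannot be told apart from less of it per cell.

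The samples held 22621338 to 26130882 reads on genes. DMSO replicate 2 stood apart from its group. The chi-square per degree of freedom, which is 1 for counting noise alone, was 7.82 and 7.74 between it and the other DMSO samples, and 2.01 to 4.82 between all other pairs of a group. For 7 of the 8 BH3-only genes it was also the DMSO sample farthest from the other two, which was so for 46.9% of all genes tested. Each member's log2 fold change is therefore also given without this sample. Of the ovarian markers, PAX8, EPCAM, KRT7, KRT8 and KRT18 had 431 to 53035 adjusted reads, while WT1 and MUC16 had 10.2 to 33.8. The T cell gene CD3E was at 0 in every sample and the leukocyte gene PTPRC did not exceed 2.00. Of 9 genes of immune, endothelial and stromal cells, 5 passed the filter on low values and 2 were called, CD68 at 1091 to 1246 adjusted reads in DMSO against 1477 to 1590.1 with pladienolide B, and COL1A1 at 6659 to 6902 against 5602 to 6318. The part of these genes in the results was not tested.

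What the members share is the BH3 core, and the stretch of coding sequence that encodes it is shown for each gene because it defines the group. It was located in the GENCODE v44 canonical transcripts (GRCh38) by translating them and searching for a leucine, any 3 residues, a glycine, alanine or serine, an aspartate, any residue and a phenylalanine, leucine or methionine. Each of the 8 coding sequences held a single match, and in each gene the stretch printed lay within a single coding exon. Capitals mark the 8 codons of the core.
BCL2L11 (chr2:111150088-111150135, + strand): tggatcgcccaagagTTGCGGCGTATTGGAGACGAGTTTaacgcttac
BBC3 (chr19:47226576-47226623, - strand): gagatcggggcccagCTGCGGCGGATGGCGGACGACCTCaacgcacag
BID (chr22:17739412-17739459, - strand): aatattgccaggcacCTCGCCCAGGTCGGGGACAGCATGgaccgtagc
BMF (chr15:40104192-40104239, - strand): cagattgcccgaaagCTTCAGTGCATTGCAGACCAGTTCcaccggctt
PMAIP1 (chr18:59902658-59902705, + strand): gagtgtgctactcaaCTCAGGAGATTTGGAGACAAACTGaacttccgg
BAD (chr11:64271619-64271666, - strand): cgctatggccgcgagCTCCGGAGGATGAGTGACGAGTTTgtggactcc
BIK (chr22:43127701-43127748, + strand): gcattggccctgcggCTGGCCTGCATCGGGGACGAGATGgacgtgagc
HRK (chr12:116881167-116881214, - strand): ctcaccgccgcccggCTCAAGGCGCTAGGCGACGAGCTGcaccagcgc
Over the 28 pairs of genes, the number of identical bases at the 24 core positions ran from 8, between BMF and BID, to 17, between BCL2L11 and BAD, with a median of 13.5.

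Pladienolide B was accompanied by changes in opposite directions within the group. BMF and BCL2L11 rose, BBC3 and BAD fell, and PMAIP1, BID, BIK and HRK did not pass the test. Values are adjusted reads, the authors' read counts brought to a common library size, and the test was limma on log2(adjusted reads + 1), on which low genes change less than their reads do, with Benjamini-Hochberg adjustment over all 16178 genes that passed a filter on low values. All 8 genes passed that filter. The 4 called genes are 50% of the members, against a background of 47.6% of all genes tested. Genes called higher were 22.4% of those tested and genes called lower 25.2%, against 2 of the 8 members in each direction. The median log2 fold change of the members was 0.14, against -0.0042 over all genes tested. The groups did not overlap for 4 of the 8 members, against 55.3% of all genes tested. The share of members that changed is thus close to that of the transcriptome, and the sections that follow describe single genes rather than a shift of the group.

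**Figure D1:**
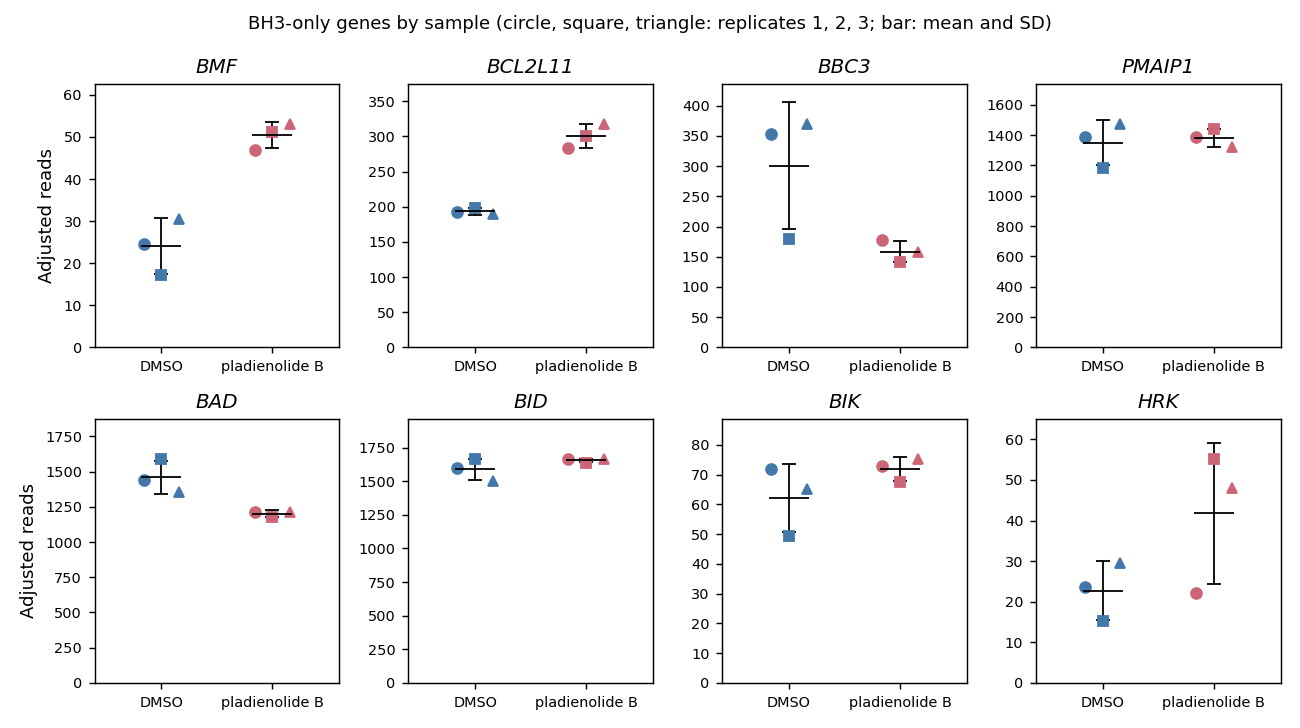
Adjusted reads of each BH3-only gene (vertical axes from 0, a separate scale for each gene) in the 3 DMSO samples (blue) and the 3 pladienolide B samples (red), where circles, squares and triangles are replicates 1, 2 and 3 and the bars give mean and SD. BMF and BCL2L11 lie higher in every pladienolide B sample than in any DMSO sample, BAD and BBC3 lie lower, and DMSO replicate 2 of BBC3 (179.7) lies next to the pladienolide B samples.

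Among the activators, BCL2L11 rose. BIM, its product, is bound by all pro-survival proteins and is released or induced by many stresses. BCL2L11 had 192, 199 and 189 adjusted reads in DMSO replicates 1 to 3. In pladienolide B replicates 1 to 3 it had 284, 299.97 and 318. The groups did not overlap, and the SD was 2.54% of a mean of 193 in DMSO and 5.66% of a mean of 300.4 in pladienolide B (n = 3 each). The level in pladienolide B was thus 1.56 times that in DMSO, and the log2 fold change in limma was 0.63 (SE, the standard error, 0.097, limma adjusted p = 4.6e-05). This log2 fold change lay at percentile 94.7 of all tested genes, and without DMSO replicate 2 it was 0.65.

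BBC3 moved the other way. Its product PUMA is a p53 target that binds all pro-survival proteins. BBC3 had 353, 179.7 and 369.7 adjusted reads in DMSO replicates 1 to 3. It had 177, 141 and 157 in pladienolide B replicates 1 to 3. The groups did not overlap, but DMSO replicate 2 exceeded the highest pladienolide B sample by little, while DMSO replicates 1 and 3 lay far above both. The SD in DMSO was 105 around a mean of 301, where counting alone would give 17.7 reads, and the SD in pladienolide B was 17.8 around 159 (n = 3 each). The mean with pladienolide B was 52.7% of that in DMSO, and the log2 fold change was -0.85 (SE 0.20, limma adjusted p = 0.0017). Without DMSO replicate 2 it was -1.19 (limma adjusted p = 8.6e-08), a fall of more than 2-fold. With a single prior variance for all genes in limma, in place of one that follows expression, the adjusted p was 0.067 and the fall was not called. BBC3 is overlapped on the opposite strand by MIR3190, which had a mean of 0.642 adjusted reads in DMSO and 3.11 in pladienolide B.

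BID did not pass the test. Its product is cut by caspase-8, which links death receptors to the mitochondrion. BID had 1600.5, 1662 and 1502 adjusted reads in DMSO replicates 1 to 3 and 1663, 1639 and 1663 in pladienolide B replicates 1 to 3. The groups overlapped, and the log2 fold change was 0.06 (limma adjusted p = 0.35). Its 95% interval, -0.05 to 0.17, corresponds to 0.968 to 1.12 times the DMSO level, so a rise beyond 1.12-fold lies outside it. Without DMSO replicate 2 the log2 fold change was 0.094.

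The transcript ratio of the activators BCL2L11 and BBC3 differed accordingly. Per kilobase of the longest transcript, BCL2L11 over BBC3 was 0.194, 0.395 and 0.183 in DMSO replicates 1 to 3. It was 0.573, 0.758 and 0.721 in pladienolide B replicates 1 to 3. Every pladienolide B sample lay above every DMSO sample. This ratio was chosen after the values of both genes were seen and was not tested.

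**Figure D2:**
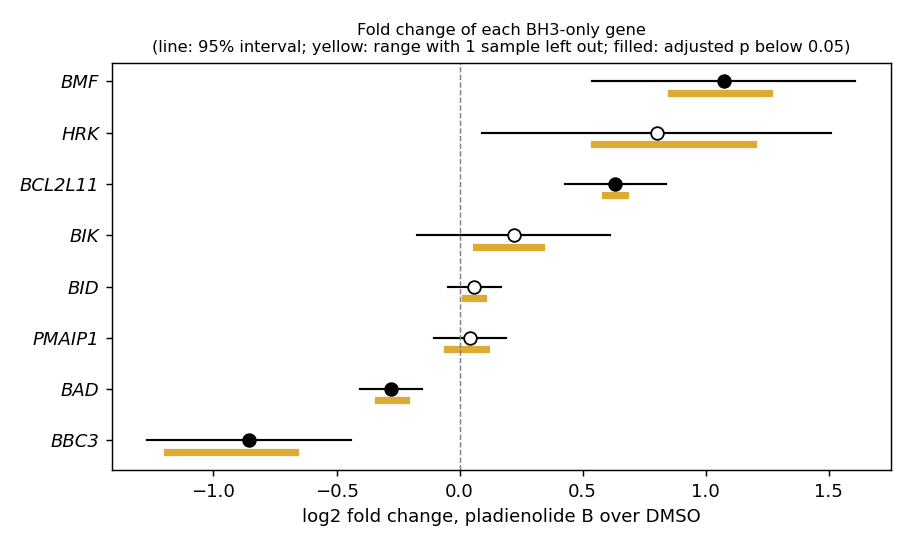
Log2 fold change with pladienolide B against DMSO (horizontal axis) for each BH3-only gene, with its 95% interval from limma (black line), the range of values when each of the 6 samples was left out in turn (yellow), and filled points for an adjusted p below 0.05. The intervals of BMF, BCL2L11, BBC3 and BAD lie away from 0 and those of BIK, BID and PMAIP1 include it, while that of HRK, unadjusted for the number of genes, runs from 0.09 to 1.51 although its adjusted p is 0.059.

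Among the sensitizers, BMF had the largest fold change of the group. Its product is held at the cytoskeleton by a dynein light chain and is freed when cells detach. BMF had 24.5, 17.2 and 30.4 adjusted reads in DMSO replicates 1 to 3. It had 47.0, 51.2 and 53.1 in pladienolide B replicates 1 to 3. The groups did not overlap, and the mean was 2.10 times higher in pladienolide B, with a log2 fold change of 1.07 (SE 0.25, limma adjusted p = 0.0021). These are few reads. The 17 reads of DMSO replicate 2 have a 95% exact Poisson interval of 9.9 to 27.2, and the 53 of pladienolide B replicate 3 one of 39.7 to 69.3, intervals that cover counting error only. Without DMSO replicate 2 the log2 fold change was 0.86 (limma adjusted p = 0.0080), still called but below 2-fold.

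HRK is, like BMF, a gene with few reads. It is known mainly for its part in the death of neurons deprived of growth factors. HRK had 23.6, 15.1 and 29.5 adjusted reads in DMSO replicates 1 to 3 and 22.2, 55.1 and 48.1 in pladienolide B replicates 1 to 3. Pladienolide B replicate 1 lay within the DMSO range, and the other two lay above it. The log2 fold change was 0.80 (SE 0.34, limma adjusted p = 0.059). The side of the threshold depended on the setting: the adjusted p was 0.042 by edgeR's quasi-likelihood test with TMM on the recovered reads, 0.046 by DESeq2, and 0.0065 by limma without pladienolide B replicate 1, with a log2 fold change of 1.19. Without DMSO replicate 2 the log2 fold change was 0.55 and the adjusted p by limma was 0.19.

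BAD fell by a small amount. Its product is kept from the mitochondrion by survival kinases, which phosphorylate it so that YWHA adaptor proteins hold it. BAD had 1439, 1588 and 1354 adjusted reads in DMSO replicates 1 to 3. It had 1215, 1174 and 1215 in pladienolide B replicates 1 to 3. The groups did not overlap, the mean was 82.3% of that in DMSO, and the log2 fold change was -0.28 (SE 0.059, limma adjusted p = 0.00097). Without DMSO replicate 2 it was -0.22. This value is uncertain because GPR137, on the opposite strand, covers 14368 bases of the gene. Of the 929 exonic bases of the canonical BAD transcript, 314 (33.8%) lie within an exon of some GPR137 transcript, although 0 lie within the canonical one. GPR137 had a log2 fold change of -0.28 as well (SE 0.058, limma adjusted p = 0.00076), with means of 953 adjusted reads in DMSO and 785 in pladienolide B. The sources used here do not state whether reads were assigned by strand. Without strand, reads on exonic bases that both genes share cannot be told apart.

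PMAIP1 and BIK did not pass the test. NOXA, the product of PMAIP1, selectively binds MCL1 and A1, and BIK acts from the endoplasmic reticulum. PMAIP1 had 1389, 1185 and 1473 adjusted reads in DMSO replicates 1 to 3 and 1387, 1441 and 1322 in pladienolide B replicates 1 to 3. The groups overlapped fully, and the log2 fold change of 0.04 had a 95% interval of -0.10 to 0.19 (limma adjusted p = 0.65), which corresponds to 0.930 to 1.14 times the DMSO level. Without DMSO replicate 2 its sign turned, to -0.05 (limma adjusted p = 0.47). BIK had 71.8, 49.4 and 65.3 adjusted reads in DMSO replicates 1 to 3 and 72.9, 67.4 and 75.2 in pladienolide B replicates 1 to 3. Here too the groups overlapped, and the log2 fold change of 0.22 had an interval of -0.17 to 0.61 (limma adjusted p = 0.35). The upper end corresponds to 1.53 times the DMSO level. The log2 fold change of BIK was 0.067 without DMSO replicate 2 and 0.33 without DMSO replicate 1.

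**Figure D3:**
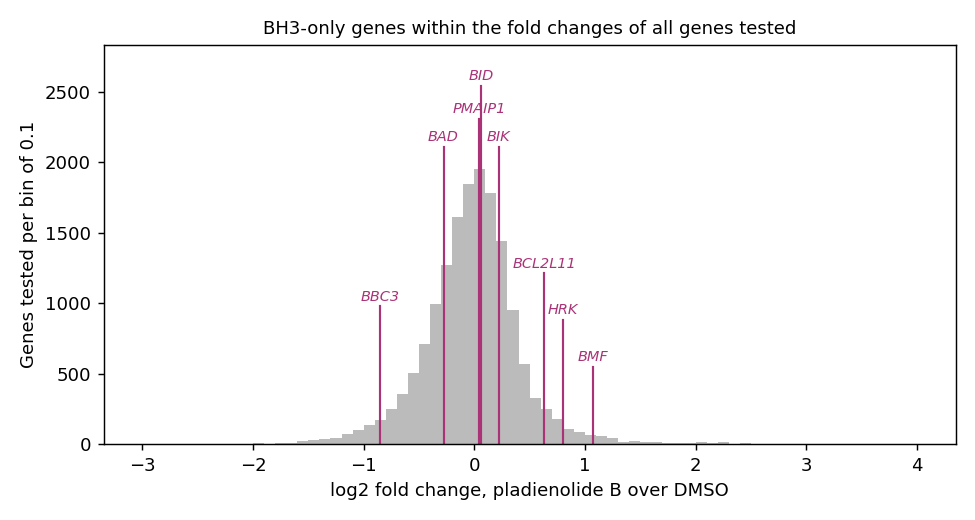
Distribution of the log2 fold change with pladienolide B against DMSO for the 16178 genes tested (grey bars, genes per bin of 0.1), with the 8 BH3-only genes marked by lines whose height carries no value. BMF, HRK and BCL2L11 lie in the upper tail, BBC3 lies in the lower tail, and the other members lie in the body of the distribution.

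The genes that changed most were not the abundant ones. Levels of different genes were set side by side as adjusted reads per kilobase of the longest GENCODE transcript. In DMSO the order was BAD (1262 ± 102, SD, n = 3), PMAIP1 (710.3 ± 78.2), BID (637 ± 32.3), BBC3 (163 ± 57.0), BIK (65.4 ± 12.1), BCL2L11 (37.4 ± 0.95), BMF (5.12 ± 1.41) and HRK (3.93 ± 1.24). PMAIP1 and BID overlapped between samples, as did BMF and HRK, so their order is not resolved by this length. The shares of PMAIP1 and BID in the summed level in DMSO were 24.6% and 22.1%. With the length of the union of exons they were 30.4% and 17.7%. BAD, BID and PMAIP1 together made up 90.5% ± 2.37 (SD, n = 3) of the summed BH3-only level per kilobase in DMSO, against 91.1% ± 0.37 (SD, n = 3) with pladienolide B. BCL2L11 went from 1.296% ± 0.042 to 2.18% ± 0.14 of that sum, BMF from 0.18% ± 0.049 to 0.40% ± 0.028, and BBC3 from 5.64% ± 1.95 to 3.22% ± 0.34 (SD, n = 3 per group). By this length, the levels per kilobase of BBC3 (76.5 to 95.8) and BIK (70.9 to 79.0) overlapped in pladienolide B, which they did not in DMSO. This comparison depends on the length used. By the union of all exons of a gene, the mean share with pladienolide B was 2.625% for BBC3 and 3.98% for BIK. In DMSO these shares were 4.64% and 3.22%.

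The summed level was lower with pladienolide B. Over the 8 genes it was 2930.0, 2856 and 2865 adjusted reads per kilobase in DMSO replicates 1 to 3 and 2689, 2656 and 2658 in pladienolide B replicates 1 to 3. The groups did not overlap. BAD, the largest part of the sum, had means of 1262 (SD 102) adjusted reads per kilobase in the DMSO samples and 1038 (SD 20.2) in those with pladienolide B. Apart from BAD, only BBC3 had a lower mean per kilobase with pladienolide B, at 85.9 against 163 in DMSO. The value of BAD is uncertain because GPR137 overlaps it, so the lower sum and its ratio to the pro-survival sum share that uncertainty. For the 6 pro-survival genes the sum ran from 2923 to 2979 among the DMSO samples and from 2913 to 3016 among those with pladienolide B, which overlap. Without BCL2L2 the sum of the other pro-survival genes was 2427 to 2492 against 2686 to 2794. The ratio of the BH3-only sum to the pro-survival sum was 1.002, 0.960 and 0.962 in DMSO replicates 1 to 3, and 0.910, 0.912 and 0.881 in pladienolide B replicates 1 to 3. These sums count transcripts, not proteins, and no test was made of them.

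**Figure D4:**
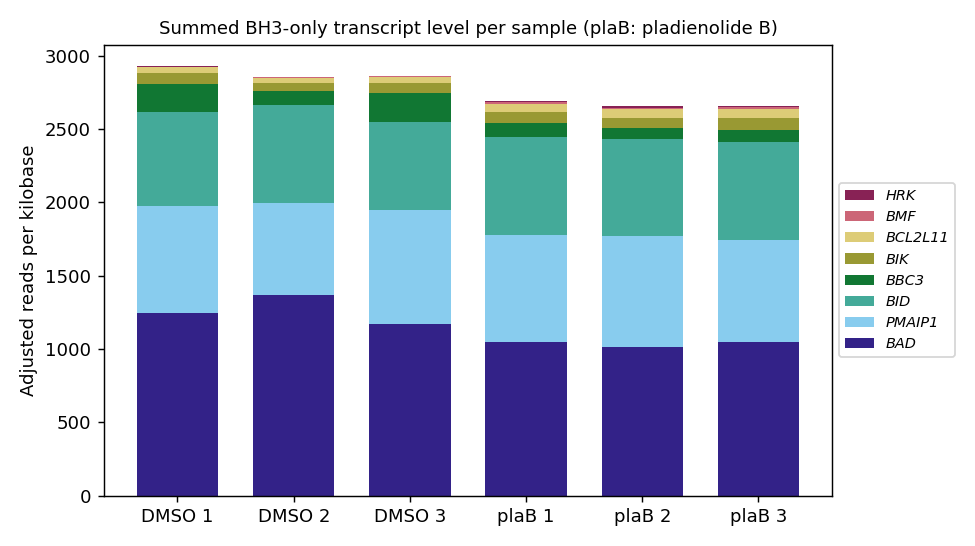
Adjusted reads per kilobase of the longest transcript (vertical axis, from 0), stacked over the 8 BH3-only genes in each of the 6 samples. BAD, PMAIP1 and BID fill most of every bar, BBC3 is thinner in DMSO replicate 2 and in all pladienolide B samples, and the bars total 2856 to 2930.0 in DMSO against 2656 to 2689 with the inhibitor.

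The lists of genes around the members are to be read against the same background of 22.4% of all genes called higher and 25.2% called lower, or 47.6% in all. Of the 6 pro-survival genes tested, 1 rose and 1 fell, with a median log2 fold change of 0.14. BCL2L2, which encodes BCL-W, had 1769, 1730 and 1742 adjusted reads in DMSO replicates 1 to 3 and 814, 808 and 789.7 in pladienolide B replicates 1 to 3. Its log2 fold change was -1.12 (limma adjusted p = 4.9e-11). BCL2A1, which encodes A1, did not pass the test, and its log2 fold change of 0.40 had a 95% interval of -0.06 to 0.85 (limma adjusted p = 0.14). Of the 3 pore-forming effectors, 1 rose and 1 fell, and BAK1 rose by 0.15 on the log2 scale (limma adjusted p = 0.019).

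Of 4 other genes whose products carry a BH3 domain, BNIP3, BNIP3L and BECN1 fell, and HUWE1 did not pass the test (log2 fold change -0.064, limma adjusted p = 0.25). The list had a median log2 fold change of -0.56. BNIP3 and BNIP3L, mitophagy receptors that are induced by low oxygen, had log2 fold changes of -1.73 (limma adjusted p = 3.5e-12) and -0.78 (limma adjusted p = 2.8e-08). BNIP3 had 7838 to 9618 adjusted reads in DMSO against 2559.9 to 2787 with the inhibitor, and the groups did not overlap.

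The genes whose products restrain or modify BH3-only proteins moved in both directions. Of 9 genes for dynein light chains and YWHA-type adaptors, which hold BMF, BIM and BAD, 4 rose and 2 fell (median log2 fold change 0.03). The dynein light chain genes moved in opposite directions. DYNLL1 fell by 0.41 on the log2 scale (limma adjusted p = 8.3e-05) and DYNLL2 rose by 0.23 (limma adjusted p = 0.00052). Of 14 genes for kinases, a phosphatase subunit and caspase-8, 2 rose and 9 fell, which is 78.6% called (median log2 fold change -0.26). PIM1, a kinase that phosphorylates BAD, had a mean of 785 adjusted reads (SD 133) in DMSO against 489.7 (SD 46.0) in pladienolide B, with a log2 fold change of -0.67 (limma adjusted p = 4.3e-05).

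Of 10 transcription factors known to regulate BH3-only genes, 3 rose and 4 fell, with a median log2 fold change of -0.19. DDIT3, which encodes the stress factor CHOP, rose by 0.60 on the log2 scale (limma adjusted p = 0.00081), from 419, 282 and 444 adjusted reads in DMSO replicates 1 to 3 to 619, 555 and 536 in pladienolide B. Of 15 other p53 target genes 14 were tested, and 6 rose and 4 fell (median log2 fold change 0.26). CDKN1A rose by 1.16 (limma adjusted p = 4.5e-10) and AEN by 0.54 (limma adjusted p = 1.3e-05), both on the log2 scale, while of the p53 targets among the BH3-only genes BBC3 fell and PMAIP1 did not pass the test. Downstream, 4 of 10 genes of mitochondrial release and the apoptosome rose and 2 fell (median log2 fold change 0.02).

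**Figure D5:**
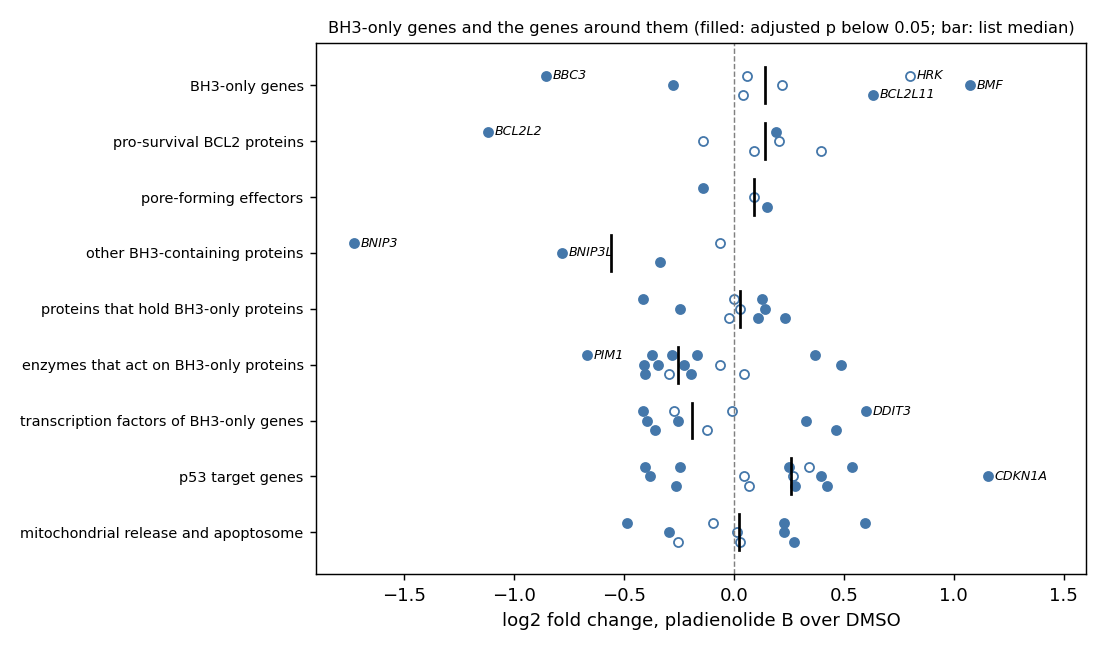
Log2 fold change with pladienolide B against DMSO (horizontal axis) for the BH3-only genes and 8 lists of genes around them (a line each), with filled points for an adjusted p below 0.05, black bars for the median of each list and names for genes of at least 0.6 in size. BNIP3 and BCL2L2 lie farthest to the left, CDKN1A and BMF lie farthest to the right, and most lists spread over both sides of 0.

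The gene models of the members differ in their introns, which are removed by splicing, a process in which the inhibitor's target takes part. In the canonical transcripts PMAIP1 and HRK have 1 intron each, BCL2L11, BBC3 and BAD have 3, BMF and BIK have 4 and BID has 5. The called genes, 2 higher and 2 lower, have 3 or 4 introns, and the members that were not called have from 1 to 5. Values per gene do not show how the transcripts were spliced.

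Promoters of the activators that moved in opposite directions are of interest for their sequence. RefSeq promoter windows on GRCh38.p14, from 250 bases before to 50 after a start site, matched 7 of the 8 members, with 13 windows in all. They were searched on both strands for the FOXO core GTAAACA and the AP-1 element TGANTCA, which reads the same on both strands and whose matches did not overlap a FOXO core, since FOXO3 is a known regulator of BCL2L11 and JUN of BCL2L11 and HRK. Capitals mark a match.
BCL2L11 promoter (chr2:111120664-111120963, + strand): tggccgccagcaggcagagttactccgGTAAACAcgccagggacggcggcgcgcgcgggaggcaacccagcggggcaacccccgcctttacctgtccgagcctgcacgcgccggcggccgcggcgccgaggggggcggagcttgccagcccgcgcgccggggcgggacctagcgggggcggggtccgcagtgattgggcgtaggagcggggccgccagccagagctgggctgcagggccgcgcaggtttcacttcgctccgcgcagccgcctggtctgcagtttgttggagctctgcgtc
BBC3 promoter (chr19:47232618-47232917, - strand): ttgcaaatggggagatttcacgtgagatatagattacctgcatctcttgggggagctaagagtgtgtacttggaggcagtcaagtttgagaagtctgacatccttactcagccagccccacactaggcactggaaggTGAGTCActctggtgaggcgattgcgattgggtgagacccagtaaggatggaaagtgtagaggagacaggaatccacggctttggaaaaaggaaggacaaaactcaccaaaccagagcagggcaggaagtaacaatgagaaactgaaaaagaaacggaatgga
The BCL2L11 window held 1 FOXO core, which begins 223 bases before the start site and is found in 3.42% of all 35116 windows. The BBC3 window held 1 AP-1 element, 113 bases before the start, found in 7.71% of all windows. The other 11 member windows held neither. The BCL2L11 window had a GC content of 74.7% and that of BBC3 48.0%, against a median of 58.7% over all windows. FOXO1 had a log2 fold change of 0.46 (limma adjusted p = 0.0045), FOXO3 of -0.41 (limma adjusted p = 0.0012) and JUN of -0.26 (limma adjusted p = 5.7e-05). The partners of JUN in AP-1 moved in both directions. FOS had a log2 fold change of -2.36 (limma adjusted p = 7.1e-09), FOSL2 of -0.58 (limma adjusted p = 1e-07) and FOSL1 of 1.04 (limma adjusted p = 6.1e-11). Whether any of these factors acts on the promoters shown was not tested. These genes were named after their values were seen.

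The genes whose profile was most like that of BMF, the called member with the largest fold change, were APLP1, MTPAP and ZFYVE27, with Pearson correlations of 0.997, 0.996 and 0.995 over the 6 samples. This is a description, since 1063 of the 13211 genes with a mean of at least 50 adjusted reads had a correlation above 0.9 and all such profiles share the difference between the groups. Their own changes were smaller. MTPAP, for example, had a mean of 678 adjusted reads in DMSO and 803 in pladienolide B.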

How the data were processed

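RNA-seq of 6 OVCAR8 samples was analysed. Per the methods, trimmed reads were mapped with hisat2 (hg38) and compared with DESeq2, and the submitters' processing notes list HISAT2, HTSeq 0.12.4, DESeq2 and hg19. The positions in the table are those of GRCh38. The authors deposited 1 signal value per gene and sample, adjusted for library size, and the step that made it is not given in the sources used here. Quantile adjustment of counts as in edgeR (dispersion 0.0027) gives values of this form. Inverting it returned whole reads, within 0.1, for 100% of 148143 values above 0, and re-adjusted values differed from the deposited ones by at most 4.9e-05. In simulated data the inversion returned 100% of reads. The authors' fold changes, p-values and q-values were not used.

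Adjusted values were tested with limma 3.58.1 (variance trend, two-sided, Benjamini-Hochberg) on log2(value + 1), since the values are not counts, after edgeR's filterByExpr (minimum 10, total 15). A gene was called at an adjusted p below 0.05. Samples were grouped by treatment label. Alternatives were other filters, a pseudocount of 0.1, TMM rescaling, no variance trend, a replicate block, omission of each sample, and edgeR 4.0.16 and DESeq2 1.42.0 on recovered reads. In simulated data with 200 of 16178 genes changed, limma called 92.4% of 2-fold changes, with 5.88% of calls false. The simulation gave every gene the same dispersion and held no sample that stood apart, and in the data 47.6% of genes were called. These rates therefore need not hold for the data.

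The genes and lists were chosen with earlier results of these data known. Named were all members, genes overlapping them that had reads, and in each list genes called with a log2 fold change of at least 0.5 in size, otherwise the gene with the smallest adjusted p, and the 3 genes most like the called member of largest fold change. A gene that this rule names is not reported here. Other genes were named after their values were seen.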

Additional observations from a re-analysis of the deposited data

How the results depend on the processing

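Over the alternatives, 6381 to 7836 genes were called against 7695, and the number of BH3-only genes called was 3 to 5 against 4. When single samples were left out, the ranges were 6568 to 7836 genes and 4 to 5 members. BMF, BCL2L11 and BAD were called under all 15 alternatives run, and BBC3 under 14, the exception being limma without the variance trend (-0.85, adjusted p = 0.067). HRK was called under 5: by edgeR with TMM (0.88), edgeR with RLE (0.88), DESeq2 (0.89), and limma without DMSO replicate 3 (1.01) or without pladienolide B replicate 1 (1.19). The cause was not tested. Of 120 values of single members, 113 kept direction and side of the threshold, and 1 turned in sign, PMAIP1 without DMSO replicate 2 (-0.049, in a range of -0.049 to 0.11 over the 6 samples left out). With the replicate number as a block, 7349 genes and 4 members were called, with log2 fold changes of 1.07 for BMF (limma adjusted p = 0.0031) and -0.85 for BBC3 (limma adjusted p = 0.00022). Same-numbered samples did not deviate together (correlations of -0.018, -0.018 and 0.0026), so the numbers were not taken as pairs. With the length of the union of exons, BAD, BID and PMAIP1 made up 90.4% of the summed BH3-only level in DMSO, against 90.5%. The shares of single genes moved with the length, as given above for PMAIP1, BID, BBC3 and BIK. Depth limits BMF and HRK most, with 15 to 53 reads per sample.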

Other observations

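The enzymes that act on BH3-only proteins did not all move together, and the genes named here were chosen after their values were seen. CASP8, which encodes the caspase that cuts BID, had 475 to 512 adjusted reads in DMSO against 675 to 708 with pladienolide B, and its log2 fold change was 0.49 (limma adjusted p = 1.5e-05). MAPK8 and MAPK9, which encode the kinases JNK1 and JNK2, had log2 fold changes of 0.37 (limma adjusted p = 5.7e-06) and -0.37 (limma adjusted p = 6.8e-06), so these paralogs moved in opposite directions. GDF15, a p53 target that did not pass the filter on low values, had 0 to 1.91 adjusted reads in DMSO against 8.42 to 19.0 with pladienolide B, and it was not tested.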
